A study of Mus musculus with 4 samples.

Results

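Complement is a set of proteins that tags particles for uptake and calls in leukocytes. Described here are 8 of its genes in mouse leukaemic cells, found by symbol in the authors' deposited table, all 8 of them among its 16545 symbols and together 9 RefSeq transcripts. They were the 3 chains of C1q (C1qa, C1qb, C1qc), the central component C3, the regulators properdin (Cfp) and clusterin (Clu), and the receptors C3ar1 and C5ar1. The genes had been picked with the OHT against EtOH values of these same libraries in view, so their differences are described without a test of their own.

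The cells carried MLL-AF9, a fusion oncogene that gives a myeloid leukaemia in mice. They came from bone marrow of C57BL/6 mice, were grown in liquid culture and were of the genotype Ring1a-/-, Ring1bf/f, Cdkn2a-/-. Ring1a (Ring1) and Ring1b (Rnf2) encode RING-finger ligases at the core of Polycomb repressive complex 1 (PRC1), and Cdkn2a encodes cell cycle inhibitors. The EtOH group (2 libraries) received ethanol and the OHT group (2 libraries) received OHT, in common usage hydroxytamoxifen, each for 72 h. Sample titles name the OHT group RingKO, a Ring knockout, and those of the EtOH group carry no such tag. Loss of Ring1a and Cdkn2a is shared by both groups, and the series title asks what PRC1 activity does for leukaemic identity. The labels used here name neither the recombinase nor a group given OHT without the floxed allele, so an effect of OHT itself cannot be told apart from loss of Ring1b. They also do not say whether the 2 samples of a group were separate cultures, so the spread between them may be technical.

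As background, C1q is the recognition unit of the classical complement route and is assembled from its A, B and C chains in equal numbers. Unlike most circulating complement, which the liver makes, C1q is made chiefly by macrophages and dendritic cells. C3 is cleaved to the opsonin C3b and to C3a, and properdin, which myeloid cells store and secrete, stabilises the convertase that amplifies this cleavage. C3ar1 and C5ar1 are the receptors for C3a and C5a on myeloid cells, and clusterin is a secreted chaperone that restrains the terminal attack complex.

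The promoters of C1qb and C1qc are shown first because these genes moved together from almost no reads, that of C5ar1 because it stayed near 0 reads, and that of C3 because it was already active with EtOH. RefSeq promoter windows (build GRCm38.p6, 250 bases before to 50 after the annotated start) were matched by symbol for 6 of the 8 genes, C1qa and Clu being the others. Capitals mark matches, on either strand, to any of the 6 motifs spelled out after the sequences.
C1qb, chr4:136886151-136886450, minus strand: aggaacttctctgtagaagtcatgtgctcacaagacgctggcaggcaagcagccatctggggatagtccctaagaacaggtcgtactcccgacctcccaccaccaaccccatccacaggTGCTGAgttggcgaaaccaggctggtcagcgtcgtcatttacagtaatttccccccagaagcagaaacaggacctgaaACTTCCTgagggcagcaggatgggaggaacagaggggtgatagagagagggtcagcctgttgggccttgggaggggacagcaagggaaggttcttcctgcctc
C1qc, chr4:136892865-136893164, minus strand: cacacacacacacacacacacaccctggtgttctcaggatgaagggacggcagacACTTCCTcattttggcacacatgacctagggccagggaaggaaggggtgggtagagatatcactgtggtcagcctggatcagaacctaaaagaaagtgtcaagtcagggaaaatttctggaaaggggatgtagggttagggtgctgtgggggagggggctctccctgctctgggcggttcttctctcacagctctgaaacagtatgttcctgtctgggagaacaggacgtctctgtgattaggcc
C5ar1, chr7:16259289-16259588, minus strand: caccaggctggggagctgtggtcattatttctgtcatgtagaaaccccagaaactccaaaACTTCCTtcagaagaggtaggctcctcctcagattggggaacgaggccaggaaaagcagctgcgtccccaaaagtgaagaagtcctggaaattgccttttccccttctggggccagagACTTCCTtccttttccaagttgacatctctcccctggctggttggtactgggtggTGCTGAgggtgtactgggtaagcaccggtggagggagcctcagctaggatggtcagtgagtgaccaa
C3, chr17:57228087-57228386, minus strand: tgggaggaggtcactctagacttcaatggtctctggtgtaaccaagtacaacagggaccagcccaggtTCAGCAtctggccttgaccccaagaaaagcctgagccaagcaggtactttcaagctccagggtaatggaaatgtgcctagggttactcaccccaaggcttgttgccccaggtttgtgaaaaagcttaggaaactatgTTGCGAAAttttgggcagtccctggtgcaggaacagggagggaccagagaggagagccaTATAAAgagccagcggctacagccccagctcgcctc
The ETS motif, AGGAAGT, is bound by factors such as PU.1 and was found in 9.35% of 32851 windows of the same length. The MAF half-site was searched as TGCTGA and found in 19.5% of them. For IRF factors, GAAA was searched with a further GAAA after any 2 bases, which 3.44% of windows held. The C/EBP motif was TTGCNNAA, held by 10.8%. The AP-1 motif was TGANTCA, held by 7.81%. The TATA box was read as TATAAA and was in 13.6% of all windows. The ETS letters occurred in the C1qb window from -53 to -47 of the annotated start and in the C1qc window from -195 to -189, both on the reverse strand. C1qb also held the MAF half-site at -131 to -126. The C5ar1 window held the ETS letters at -190 to -184 and -72 to -66 and the MAF half-site at -17 to -12. Reads of C5ar1 may have been lost in counting, so its letters are not set against its level. C3 had the C/EBP letters at -45 to -38, the MAF half-site at -182 to -177 and a TATA box at 14 to 19. A TATA box normally lies before the start of transcription, so the annotated C3 start may lie upstream of the main one, and the C3 positions hold only relative to the annotated start. No IRF match fell in any of the 6 windows, Cfp matched no motif, and no match overlapped another. The C1qb window had 6 CpG dinucleotides, those of C1qc, C3 and C5ar1 3 each, C3ar1 5 and Cfp 2, against a median of 7 over all windows. All 6 were thus below the median in CpG. These matches describe letters only.

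Levels are given as reads per library and as normalised reads, which are reads divided by the size factor of the library. They were solved from the deposited group means, and the libraries are called A and B because no file ties either to a replicate number. Totals ran from 3841243 to 6255320 reads. Rnf2 had 828 and 448 reads with EtOH and 852 and 714 with OHT, and the deleted stretch of the floxed allele is not stated in the labels, so this count does not check the deletion. Ring1 was read in every library (60 to 177 reads), as was Cdkn2a (22 to 72 reads over its 2 transcripts). Both groups are labelled Ring1a-/- and Cdkn2a-/-. The labels do not give the missing stretch of either gene, so these reads do not check the genotype.

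All 8 genes had more normalised reads in both OHT libraries than in either EtOH library, and 5 of them (C1qa, C1qb, C1qc, C3 and Clu) rose in the authors' deposited table, where a call is an adjusted p under 0.05. Over 1 transcript per symbol, 27% of all 16545 symbols had both OHT libraries above both EtOH libraries, 3.94% rose by the same threshold and 2.02% fell. A limma-voom fit to the solved reads of 11338 transcripts called 9.72% higher and 5.49% lower. Since the genes were chosen on this contrast, nothing is read from these counts. The median log2 ratio of the 8 was 2.55 in the authors' deposited table, against 0.04 over all symbols. It includes C5ar1 at 1.65, which rests on 0 reads with EtOH and 5 with OHT, and nothing is read from this median either. In bulk RNA, more cells of a type and more RNA per cell cannot be told apart.

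**Figure D1:**
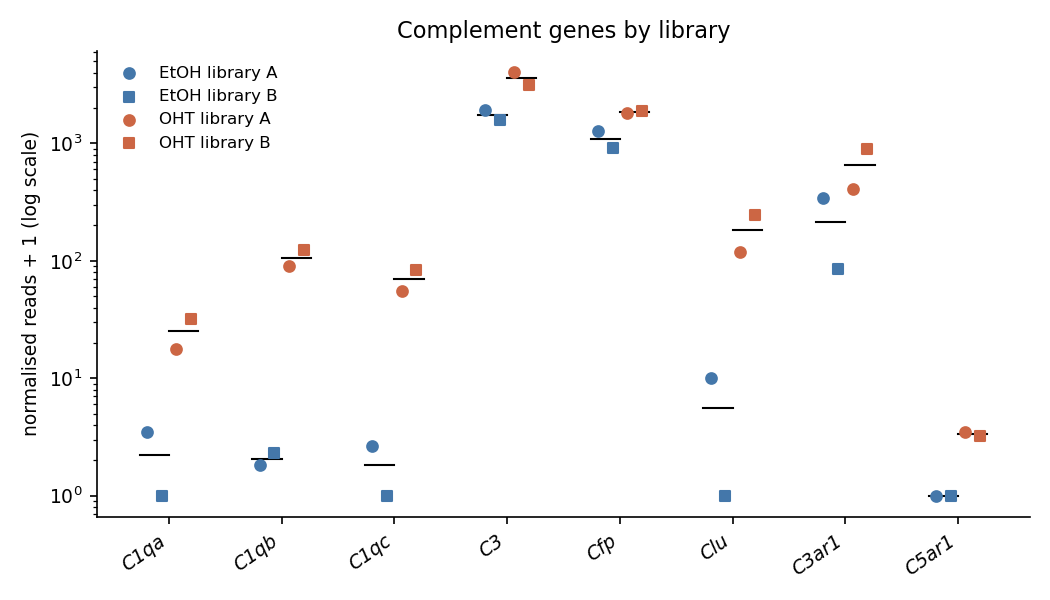
Normalised reads plus 1 (log scale) of each gene in EtOH libraries A and B (blue) and OHT libraries A and B (orange), with black bars at the group means plus 1. C5ar1 is its transcript NM_001173550. C1q chains and Clu start near 0 with EtOH, whereas C3 and Cfp lie between 906 and 1917 normalised reads with EtOH and between 1814 and 4050 with OHT.

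The C1q chains went from almost no reads to a clear level together. C1qb, the B chain, had 1 and 1 reads in EtOH libraries A and B and 106 and 109 in OHT libraries A and B. That is 0.829 and 1.30 normalised reads against 89.0 and 121.7, and the read ratio of 102 had an exact 95% counting interval of 27.8 to 845. The 2 OHT libraries were close to each other and far from both EtOH libraries.

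C1qc, the C chain, had 2 and 0 reads with EtOH and 65 and 74 with OHT. In normalised reads this was 1.66 and 0 against 54.6 and 82.6, a read ratio of 65.8 (17.9 to 548). C1qa, the A chain, was the least read, with 3 and 0 reads against 20 and 28. Its normalised reads were 2.49 and 0 with EtOH and 16.8 and 31.3 with OHT, a ratio of 15.1 (4.88 to 76.0). The 3 intervals overlap, so an order of the chains by fold is not resolved at this depth. EtOH library B held 1 read of the 3 chains together and EtOH library A 6, whereas the OHT libraries held 191 and 211. Over all chains the read ratio was 54.3 (26.1 to 136). These intervals cover counting error only.

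The limma-voom log2 fold change on the solved reads was 6.05 ± 0.69 (SE) for C1qb, 5.84 ± 0.76 for C1qc and 4.05 ± 0.84 for C1qa. Leaving out EtOH library A gave 5.72, 6.67 and 5.14 in the same order, and leaving out EtOH library B gave 6.37, 5.0 and 2.98. The size of the C1qa and C1qc folds therefore turned on which EtOH library was kept, while all 3 chains stayed called by limma-voom without any 1 of the 4 libraries.

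Per length, the chains were not read equally. In the OHT libraries C1qb averaged 96.8, C1qc 57.0 and C1qa 23.1 normalised reads per kb of transcript, so C1qb stood 4.19 times above C1qa and 1.70 times above C1qc. Of all C1q reads in OHT library A, 55.5% were C1qb (exact 95% interval 48.1% to 62.7%), 34% C1qc (27.3% to 41.2%) and 10.5% C1qa (6.51% to 15.7%). In OHT library B the shares were 51.7% (44.7% to 58.6%), 35.1% (28.6% to 41.9%) and 13.3% (9.0% to 18.6%). The order of the chains and their shares were alike in both OHT libraries, each interval holding the share of the other library. With 7 reads of all chains in the EtOH group, no such order can be read there.

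**Figure D2:**
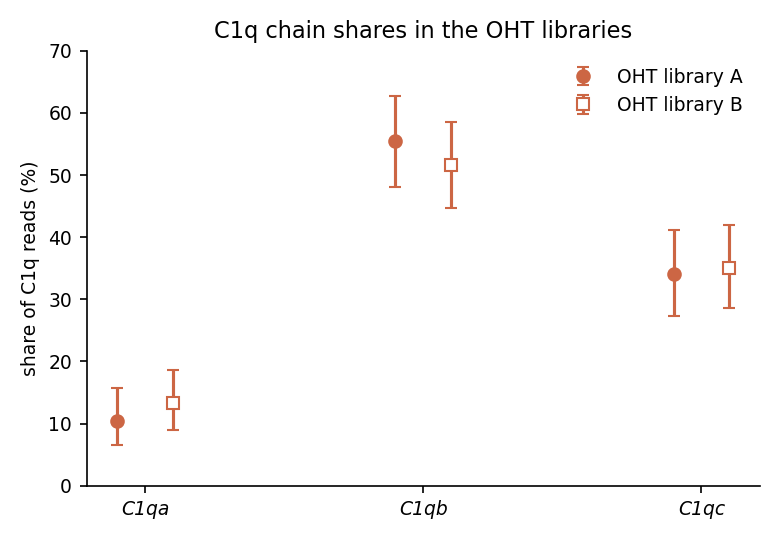
Share of C1q reads (%) from each chain gene in OHT library A (filled circles, 191 reads) and OHT library B (open squares, 211 reads), with exact 95% binomial intervals. C1qb takes the most and C1qa the least in both libraries.

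C3, by contrast, was already abundant with EtOH. It had 2312 and 1215 reads with EtOH and 4822 and 2815 with OHT, or 1917 and 1582 normalised reads against 4050 and 3143. The read ratio was 2.05 (1.97 to 2.13), and the groups did not overlap. Per kb, C3 moved from percentile 89.5 to percentile 97.5 of the 17634 transcripts with a known length. C1qb, for comparison, moved from percentile 26.7 to 70.7. The limma-voom log2 fold change of C3 was 1.03 ± 0.22 (SE), and without OHT library A it was 0.85 and no longer called.

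Of the regulators, clusterin rose from few reads, and properdin was higher by less. Clu had 11 and 0 reads with EtOH and 140 and 218 with OHT, that is 9.12 and 0 normalised reads against 118 and 243. All of its EtOH reads thus came from library A. The read ratio was 30.8 (17.0 to 62.2). By limma-voom its log2 fold change was 5.93 ± 1.05 (SE), moving to 7.97 without EtOH library A and to 4.10 when EtOH library B was left out, so its fold hung on a single control library although its call did not. Per kb Clu averaged 99.7 normalised reads with OHT, beside 96.8 for C1qb.

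Cfp had 1530 and 696 reads with EtOH and 2160 and 1699 with OHT. In normalised reads this was 1269 and 906 against 1814 and 1897, a ratio of 1.64 (1.56 to 1.73). The groups did not overlap, yet the authors' deposited table does not call Cfp. Limma-voom gave it 0.79 ± 0.22 (SE) and called it with all libraries and when EtOH library A was left out, but not without EtOH library B (0.55), OHT library A (0.81) or OHT library B (0.74). Cfp had the highest level per kb of the 8 genes in both groups, with 665 normalised reads per kb with EtOH and 1134 with OHT, at percentiles 96.6 and 99.4 of all transcripts.

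The receptors gave no call in the authors' deposited table. C3ar1 had 412 and 65 reads in EtOH libraries A and B and 489 and 804 in OHT libraries A and B, or 342 and 84.6 normalised reads against 411 and 898. EtOH library A lay close below OHT library A, and each group spread widely within itself. The read ratio was 2.56 (2.31 to 2.85) and the limma-voom log2 fold change 1.69 ± 0.54 (SE), not called. Without EtOH library A it was 2.83 and called, without EtOH library B it was 0.82 and not called, without OHT library A it was 2.30 and called, and without OHT library B it was 1.17 and called.

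C5ar1 was hardly read. Its transcript NM_001173550 had 0 and 0 reads with EtOH and 3 and 2 with OHT. The exact 95% counting interval of its read ratio starts at 0.867 and so includes no change. Its transcript NM_007577 had 0 and 0 against 1 and 0, and no fold is given for either. The 2 transcripts are forms of 1 gene, and reads shared by forms of a gene may have been lost in counting. Symbols with several transcripts had a median summed EtOH mean of 22.9 in the authors' deposited table, against 53.5 for symbols with 1. A low value for C5ar1 therefore does not show that the receptor was absent. The neighbouring receptor gene C5ar2, listed as 1 transcript, had 0 and 0 reads with EtOH and 1 and 0 with OHT.

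Outside these 8 genes, 38 of 60 listed complement symbols were measured, and 3 rose in the authors' deposited table: Itgax, Lrp1 and Susd4. Itgax, the alpha chain of complement receptor CR4, rose 6.41-fold, 90.1 to 577 by the means of the authors' deposited table (adjusted p = 1.13e-12). It was higher in 2 of 2 OHT libraries, with 625 and 528 normalised reads against 98.7 and 79.4. Lrp1, a scavenger receptor that also binds C1q and clears protease complexes, rose 3.61-fold, 784 to 2831 by the authors' deposited table (adjusted p = 0.0240). Its normalised reads were 1110 and 456 with EtOH and 3375 and 2284 with OHT. Susd4, a complement inhibitor, rose 10.7-fold, 3.55 to 38.0 by the authors' deposited table (adjusted p = 0.00301), with 6 and 0 reads against 43 and 34. All 3 were also called by limma-voom with all libraries and without any 1 of them. The limma-voom log2 fold change of Lrp1 was 1.94, moving to 2.59 without EtOH library A and to 1.31 when EtOH library B was left out, and that of Susd4 was 4.32, moving to 5.85 and 2.80.

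The 3 calls among these 38 genes stand beside 3.94% of all symbols that rose in the authors' deposited table. Limma-voom called 4 of them higher, against 9.72% of all transcripts it fitted. Whether these counts differ from the shares was not tested. The median log2 ratio of the 38 genes was 0.36 in the authors' deposited table, and 0.50 over the 24 with more than 3 reads in a group, against 0.04 and -0.01 for all symbols. None fell in the authors' deposited table or by limma-voom. At an unadjusted p under 0.05 that table had 5 higher and 1 lower, the scavenger receptor gene Scarf1, named after its values were seen. Limma-voom also called Fcna higher, a ficolin that starts the lectin route, at 2.10 ± 0.61 (SE) with an adjusted p of 0.0435, and its call was lost without EtOH library B or OHT library B.

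The lists by role are short, and 3.94% of all symbols rose in the authors' deposited table, so counts of 0 are not read as results. By role, 0 of 8 initiating genes passed the threshold in the authors' deposited table, with 2 at an unadjusted p under 0.05 and 1 called by limma-voom. The authors' deposited table gives EtOH and OHT means of 60.6 and 139 for C1rl, a relative of the C1r protease (adjusted p = 0.276), 7.82 and 33.9 for Fcna (0.101) and 4.68 and 34.4 for the ficolin Fcnb (0.688). The Fcnb reads lay mostly in OHT library A, with 69 there and 8 in OHT library B. C1ra, the protease that C1q activates in the plasma complex, had 4 and 1 reads with EtOH and 3 and 1 with OHT, and was named after its values were seen. The C1q chains were thus read without a comparable count of C1ra.

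Of 8 components, 0 passed in the authors' deposited table, 0 at an unadjusted p under 0.05 and 0 by limma-voom. The authors' deposited table gives C4b 30.1 and 91.2, C4a 8.88 and 18.9 and C8g 16.7 and 11 as EtOH and OHT means. C4a and C4b are near-identical copies whose reads may have been split, and C2, C6, Cfb and Hc (the C5 gene) had at most 3 reads in each group. Of 12 receptor genes 2 rose, and the most abundant of the others were not called by the authors' deposited table: calreticulin (Calr) at 2839 and 2776, the C1q-associated receptor Cd93 at 2826 and 3671 and the integrin chain Itgb2 at 2670 and 3401. Of 10 regulators Susd4 alone rose, with Cr1l, the rodent inhibitor Crry, at 788 and 666 and Cd55, which speeds the decay of convertases, at 5.21 and 9.91 by the authors' deposited table.

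**Figure D3:**
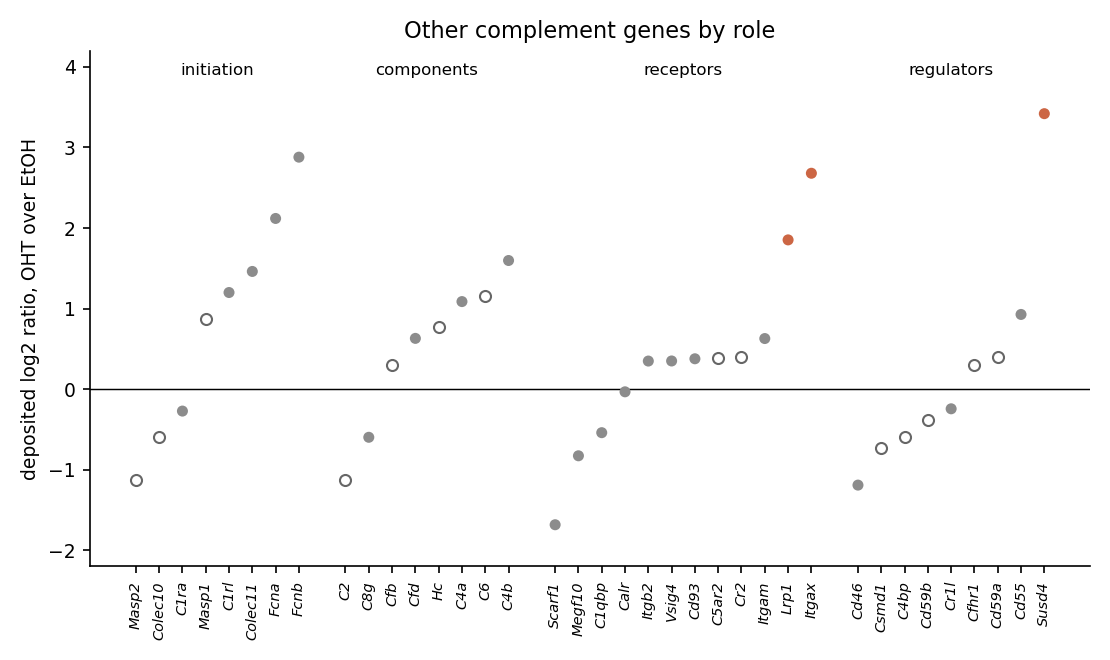
Deposited log2 ratio (OHT over EtOH) of 37 of the 38 measured complement genes outside the 8, by role and in rising order within a role. Orange points rose at an adjusted p of 0.05, grey points did not pass, and open points had at most 3 reads in each group; Itgax, Lrp1 and Susd4 are the 3 orange points.

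Genes that share the globular C1q domain with the C1q chains did not give calls. Over all symbols 3.94% rose in the authors' deposited table, so 0 calls among so few genes sets up no contrast with the chains. Of 24 listed, 12 were measured and 0 passed in the authors' deposited table, 0 at an unadjusted p under 0.05 and 0 by limma-voom with all libraries. Their median log2 ratio was 0.75 in the authors' deposited table, with 11 of 12 above 0. Over all symbols the median was 0.04, with 8536 of 16545 above 0. Of the 12, 3 had at most 3 reads in each group. The most abundant, Emilin2, an extracellular matrix protein named after its values were seen, had means of 2564 and 4311 by the authors' deposited table (adjusted p = 0.476).

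A gene beside the C1q chains also rose. C1qa, C1qb and C1qc are adjacent protein-coding genes on chromosome 4 in the RefSeq gene order. The next protein-coding gene beyond C1qb is Ephb2, a receptor tyrosine kinase for ephrin-B ligands. Ephb2 had 11 and 5 reads with EtOH and 189 and 167 with OHT, and its mean rose, 8.88 to 174 by the authors' deposited table (adjusted p = 2.78e-14). Both OHT libraries lay far above both EtOH libraries, as for the C1q chains. On the other side of the cluster, Epha8, another ephrin receptor, had 2 and 0 reads against 3 and 5, and the zinc finger gene Zbtb40 had means of 531 and 376 by the authors' deposited table (adjusted p = 0.461). Lactbl1, beyond Ephb2, had 4 and 0 reads against 2 and 1.

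Profiles over the 4 libraries were also compared. They use the same reads and the same rise with OHT, so a gene found here gains no separate support. Among 8087 transcripts with an OHT mean of at least 50, the 5 nearest to the mean C1q profile were Lpl, Igf2bp1, Stac2, Shank1 and Ephb2. Nearness was the root mean square difference of log2(normalised reads + 1), centred on the EtOH mean, and came to 0.13, 0.33, 0.38, 0.47 and 0.49. Lpl, lipoprotein lipase, had 70 and 20 reads with EtOH and 1208 and 1567 with OHT. These profiles rest on 4 points in 2 groups.

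For all 8 genes, the 2 nearest measured protein-coding genes on each side came to 24, of which 4 rose in the authors' deposited table. These were Ephb2 beside the C1q chains, Tnfsf14 and Tnfsf9 beside C3, and Foxj2 beside C3ar1. Over all symbols 3.94% rose, and whether neighbours differ from that share was not tested. Tnfsf14 (LIGHT), the gene next to C3, had 439 and 183 reads with EtOH and 970 and 805 with OHT. Tnfsf9 (4-1BB ligand) had 104 and 25 against 294 and 259, and Foxj2, a forkhead factor, 345 and 153 against 685 and 426. Beside Clu, the scavenger receptor gene Scara3 had 1 and 0 reads with EtOH and 4 and 26 with OHT, and the authors' deposited table does not call it (adjusted p = 0.782). The macrophage gene Emr1, which encodes F4/80, also lies near C3.

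**Figure D4:**
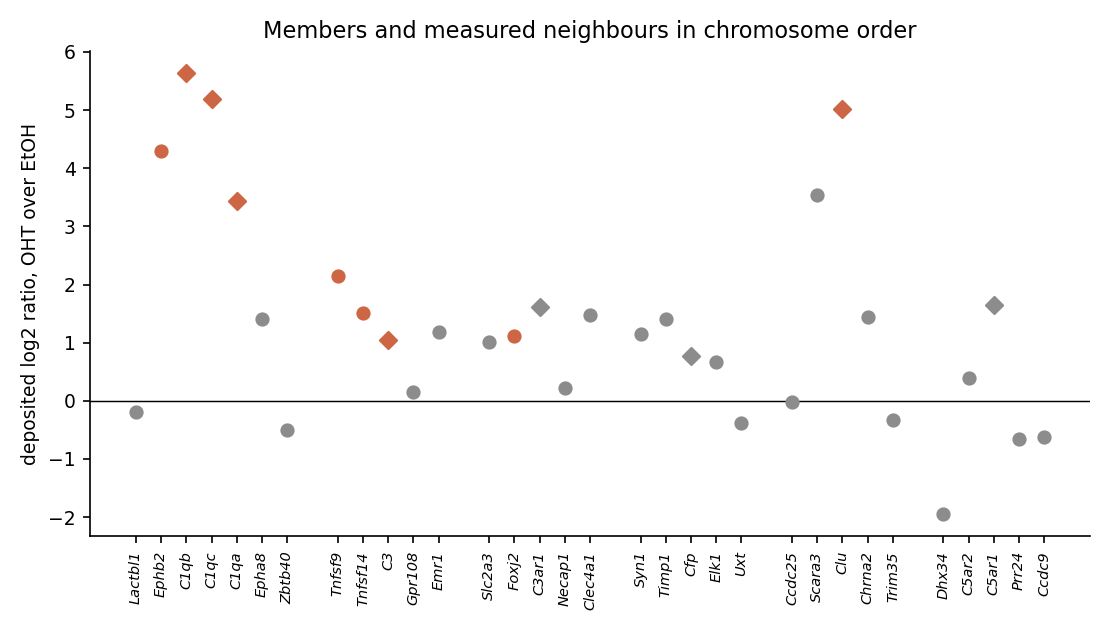
Deposited log2 ratio (OHT over EtOH) of the 8 genes (diamonds) and their nearest measured protein-coding neighbours (circles), in chromosome order within 6 loci separated by gaps. Orange marks a rise at an adjusted p of 0.05, and the C1q locus shows C1qb, C1qc, C1qa and Ephb2 above the genes around them.

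Some macrophage genes also rose with OHT. Of 30 listed, 24 were measured, and 6 rose in the authors' deposited table and 11 by limma-voom. Mrc1, Spic, Cd5l, Ctss, Cx3cr1, Folr2 and Trem2 had too few reads for the limma-voom filter, so the 2 counts have different bases. They stand beside 3.94% of all symbols in that table and 9.72% of all transcripts that limma-voom fitted. Whether the list differs from these shares was not tested. Among the 6 were Maf, Mertk, Lgmn, Lyz2 and Slc40a1. Maf, a macrophage transcription factor, had 32 and 3 reads with EtOH and 208 and 106 with OHT (9.06-fold in the authors' deposited table, adjusted p = 6.13e-05). Mertk, a receptor for the uptake of dead cells, had 7 and 0 against 75 and 36, and the lysosomal protease gene Lgmn 285 and 41 against 836 and 868. The summed level of the 24 genes was 8823 and 5785 normalised reads in EtOH libraries A and B and 15462 and 18215 in OHT libraries A and B. Its part in the complement values was not tested.

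The macrophage list did not move as 1 block. Apoe and Vcam1, named after their values were seen, were lower in both OHT libraries, with 188 and 307 against 152 and 89 reads and 273 and 268 against 239 and 42 reads. The authors' deposited table calls neither (adjusted p = 0.816 and 0.644). Of the other resident macrophage genes, all named after their values were seen, Csf1r, the receptor for the macrophage growth factor CSF-1, had 276 and 95 reads with EtOH and 1752 and 668 with OHT. Siglec1, the sialoadhesin of tissue macrophages, had 6 and 1 against 37 and 58. Both were called higher by limma-voom, at log2 fold changes of 2.58 ± 0.39 and 3.68 ± 0.78 (SE), but not by the authors' deposited table (adjusted p = 0.0666 and 0.0503). The mannose receptor gene Mrc1 had 3 and 0 reads against 20 and 7. Fewer still were read of Cd5l (0 and 0 against 2 and 0), Folr2 (0 and 2 against 4 and 4) and Trem2 (2 and 0 against 6 and 3), and Fcgr1, the high-affinity IgG receptor, had 345 and 113 against 296 and 192.

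The C3ar1 pattern, low in EtOH library B and high in OHT library B, was also seen in Emr1, Gpnmb and Cd68, which were named after their values were seen. Emr1 had 1882 and 634 normalised reads with EtOH and 2375 and 3315 with OHT. Gpnmb, a lysosomal glycoprotein of macrophages, had 1197 and 189 against 2447 and 4188, and Cd68 had 509 and 220 against 819 and 1214. Of the 24 measured macrophage genes, 16 had more normalised reads in EtOH library A than in EtOH library B. With OHT, 15 of the 24 were also higher in library A, Csf1r, Maf and Mertk among them. Most of the list thus did not share the C3ar1 pattern in the OHT libraries. Neutrophil genes ran the other way between the control libraries, with summed levels of 6166 in EtOH library A and 9026 in EtOH library B, beside 9146 and 8351 with OHT. The share of this library difference in C3ar1 was not tested.

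**Figure D5:**
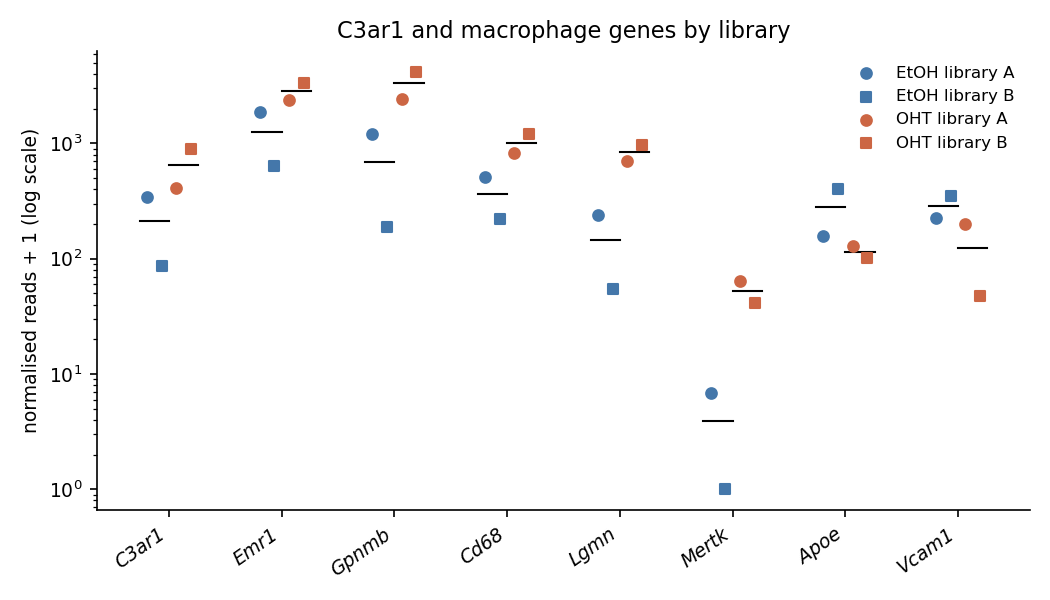
Normalised reads plus 1 (log scale) of C3ar1 and 7 macrophage genes in EtOH libraries A and B (blue) and OHT libraries A and B (orange), with black bars at the group means plus 1. EtOH library B is the lowest for C3ar1, Emr1, Gpnmb, Cd68, Lgmn and Mertk, whereas Apoe and Vcam1 are highest there.

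Markers of cell types outside the myeloid lineage were also counted. Over all symbols 3.94% rose in the authors' deposited table and 2.02% fell, so counts of 0 in these short lists are not read as results. Of the endothelial (6 measured), B cell (4), T and NK cell (5) and hepatocyte (3) lists 0 genes passed in the authors' deposited table, at an unadjusted p under 0.05 or by limma-voom. Summed levels were 22.1 to 41.5 normalised reads with EtOH and 26 to 30.1 with OHT for endothelium, and 1.30 to 3.32 and 2.52 to 13.4 for hepatocytes (chiefly Apoa1). Of the endothelial genes, Pecam1 had 40 and 11 reads with EtOH and 12 and 21 with OHT, and Egfl7 8 and 4 against 5 and 2. Kdr, a VEGF receptor, had 0 and 0 against 14 and 3 (adjusted p = 0.419 in the authors' deposited table). Alb and Ttr, which mark hepatocytes, and Cdh5 and Cldn5, which mark endothelium, had at most 3 reads per group. These and Kdr were named after their values were seen. B cell sums ran from 60.5 to 115 with EtOH and from 102 to 190 with OHT, chiefly Cd79b, and T and NK sums from 9.12 to 23.4 and from 24.6 to 28.6, chiefly Nkg7.

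Of 7 stromal genes 1 (Col1a1) rose by the authors' deposited table, 1 of 3 erythroid (Epor), 1 of 5 megakaryocyte (Pf4), 1 of 13 neutrophil (Mmp8) and 2 of 9 dendritic genes (Itgax and Batf3). Limma-voom called 1 stromal, 1 erythroid, 2 megakaryocyte, 1 neutrophil and 4 dendritic genes higher. The dendritic calls took in H2-Ab1 (14 and 4 reads with EtOH, 43 and 39 with OHT) and H2-Aa (7 and 0 against 21 and 24). Both were named after their values were seen. Over all symbols 3.94% rose in the authors' deposited table, and limma-voom called 9.72% of its transcripts higher. Whether these short lists differ from those shares was not tested. Stromal sums were 15.8 to 39.1 with EtOH and 49.1 to 52.9 with OHT, and dendritic sums 118 to 159 and 688 to 770, chiefly Itgax. Of 10 handling and stress genes, Fos, Jun and Atf3 rose and Ddit3 fell in the authors' deposited table. Their summed level was 4784 and 3605 normalised reads with EtOH and 4967 and 5803 with OHT, and its part in the complement values was not tested.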

How the data were processed

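RNA-seq of 4 libraries was used, 2 per group. TopHat, DESeq and build mm9 are named in the submitters' processing notes, without versions or roles, and the read counter is not given in the sources used here. Per the file headers, the signal columns are group means of normalised reads (base means), the ratio column divides the OHT by the EtOH mean, the log2 column is its log2, and 2 deposited columns hold each p-value and its adjusted value, which matched a Benjamini-Hochberg adjustment over all 18061 transcripts to within 2.63e-06. The authors' columns held 0 samples of other series.

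A call is an adjusted p under 0.05 as the authors deposited it, and the most abundant transcript was taken for each symbol. Each deposited mean solved to exactly 1 pair of whole reads, with 1 read added per library, for 100% of transcripts in both groups. Means moved by up to 0.1% still solved in 0.161% of cases for EtOH and 0.149% for OHT. The added read is left out of normalised reads. Solved reads of transcripts with at least 10 reads in 2 libraries were fitted with limma-voom (limma 3.58.1, R 4.3.3), with 2 residual degrees of freedom and the same transcripts in every fit that leaves out a library, where the lone library of a group is assumed to vary like the other group. Solving and fitting were tested on simulated data. Read ratios use summed size factors with exact binomial intervals (SciPy 1.17.1). Transcript lengths are those of GENCODE M21 transcripts paired by RefSeq accession (97.6% matched).

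The genes, lists and motifs were chosen with earlier results of these data known. Named are the 8 genes, called complement genes and the 3 most abundant uncalled per role, called macrophage genes, the leading genes of other lists, Rnf2, Ring1 and Cdkn2a, and the 5 nearest profiles; other names were chosen after their values were seen, and 2 genes that the rule names are not reported here. Neighbours and motifs were added after the data were seen.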

Additional observations from a re-analysis of the deposited data

How the results depend on the processing

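No paired analysis was possible because the solved libraries carry no replicate number. No TMM-like scaling was run; scaling by total reads was. Of the 8 genes, 5 were called higher in the authors' deposited table, 6 by limma-voom and 5 to 7 when 1 library was left out. Transcripts called higher numbered 654 in the authors' deposited table, 432 at an adjusted p under 0.01, 1102 by limma-voom, 1646 without a filter on low reads, 1168 with total-read scaling and 795 to 1597 when 1 library was left out (1597 without EtOH library A, 1046 without OHT library B). Those called lower numbered 335, 163 at the stricter threshold, 623 by limma-voom, 800 without the filter and 133 to 1075 when 1 library was left out (1075 when it was EtOH library A, 656 for EtOH library B and 133 for OHT library A). Of complement genes outside the 8, 3 were called higher, 7 by limma-voom without the filter and 3 to 6 when 1 library was left out (6 without EtOH library A, 5 without OHT library B). None was called lower, but 1 was without the filter and 0 to 2 when 1 library was left out. For globular C1q domain relatives the higher calls were 0, 2 without the filter and 0 to 1 when 1 library was left out. The cause of these shifts was not tested.

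No log2 ratio of the 8 genes changed sign under any alternative run. With a pseudocount of 5 normalised reads the ratio was 4.19 for C1qb and 3.66 for C1qc, from 5.64 and 5.2 in the authors' deposited table. Reading motifs on the forward strand only left 6 of 12 matches, and neither ETS match of C1qb and C1qc. Depth limits C1qa, C5ar1 and every EtOH value of the C1q chains.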
